A study of Bos taurus with 9 samples.

Results

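A total of 4834 short chromatin sites in cattle kidney cells carried both histone acetylation marks before and after butyrate and were touched by a Pol II peak after butyrate. They made up 5.11% of the 94603 control H3K27ac peaks on the nuclear chromosomes. Each site was a control H3K27ac peak shorter than 1000 bp that shared at least 1 bp with a control H3K9ac peak, a butyrate H3K9ac peak, a butyrate H3K27ac peak and a butyrate Pol II peak. Sites of this kind can be called promoter-like. That name could not be checked here, because no promoter mark such as H3K4me3 and no gene annotation of the build was used, so the sites are called acetylated Pol II sites after their rule.

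The cells were MDBK, an established bovine kidney epithelial line, either untreated or exposed to 5 mM butyrate for 24 h. ChIP-seq was made in each condition with 4 antibodies, against H3K9ac, H3K27ac, Pol II and H3K9me3, with 75-nt reads. Each of the 8 combinations was 1 library, so no difference between the conditions has a replicate check, and no p-value is given. All 4 control libraries came from sequencing lane 4 and all 4 butyrate libraries from lane 5, so lane and treatment cannot be told apart. The peak lists hold the start and end of each peak with no height, score or read count. Depth cannot be read from them, and a site without a peak is a site without a call. The paper gives mapping statistics of its data sets in its supplement, which were not used here. Intervals in the text are 95% Wilson intervals of a share of sites. They cover counting error only, since neighbouring peaks are not independent and each list is 1 library of bulk cells. More cells with a mark and more of the mark per cell cannot be told apart in such lists.

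Acetyl groups on lysines 9 and 27 of histone H3 mark active chromatin. H3K9ac is known mainly from active promoters, and H3K27ac from active promoters and enhancers. RNA polymerase II (Pol II) is the enzyme that transcribes protein-coding genes. It gathers at active promoters and can also be found at active enhancers. Trimethylation of H3 lysine 9 (H3K9me3) is a mark of silent heterochromatin. Butyrate, a product of microbial fermentation in the rumen and gut, inhibits histone deacetylases, the enzymes that remove acetyl groups.

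The steps of the rule show where control H3K27ac peaks were lost. Of the 94603 peaks, 90009 were shorter than 1000 bp, and 38548 of these also met a control H3K9ac peak. A butyrate H3K27ac peak was present at 32249 of them, and a butyrate H3K9ac peak at 19090 of those. These 19090 short sites had both acetyl marks in both conditions, and 25.3% of them (24.7 to 25.9) had a butyrate Pol II peak. The other 14256, with the same acetylation and the same length limit but no butyrate Pol II call, were the closest set for comparison. A further 1747 control H3K27ac peaks met all other steps but were 1000 bp or longer. Among all control H3K27ac peaks the single overlaps were 45.5% for control H3K9ac, 37.5% for butyrate H3K9ac, 65.9% for butyrate H3K27ac and 12.8% for butyrate Pol II. These lists chose the sites, and nothing is read from their presence there.

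Just inside the length limit were 6 sites of 999 bp. Their butyrate H3K27ac peaks ran from 306 to 3113 bp, longer than the site at 3 of the 6, and their Pol II peaks from 199 to 434 bp. The first of them in chromosome order, chr5:19609040-19610038, had a butyrate H3K27ac peak of 3113 bp, H3K9ac peaks of 632 bp in control and 459 bp after butyrate, and a butyrate Pol II peak of 281 bp. The second, chr5:19951271-19952269, had a butyrate H3K27ac peak of 1191 bp, H3K9ac peaks of 1043 and 743 bp, and a Pol II peak of 352 bp. Just outside were 2 peaks of 1000 bp. One was chr18:34840340-34841339, with 710 bp of butyrate H3K27ac, H3K9ac peaks of 755 and 304 bp and a Pol II peak of 199 bp. The other was chr19:43672955-43673954, with 1116 bp of butyrate H3K27ac, H3K9ac peaks of 1187 and 514 bp and a Pol II peak of 274 bp. H3K9ac was shorter after butyrate at all 6 sites of 999 bp and at both peaks of 1000 bp. Coordinates are 1-based on the UMD3.1 cattle assembly named in the labels.

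Because all 5 lists had to touch the same short peak, some sharing of bases followed from the rule, and the extent of it is given as a description. Bases covered by peaks of all 5 lists existed at 4235 sites (87.6%) and were lacking at the others, with a median of 164 bp over all sites (quartiles 63 and 226 bp), which was 31.2% of the site. The outermost ends of the overlapping peaks lay 967 bp apart in the median site (quartiles 738 and 1301 bp). Most sites met 1 peak of each kind, in 91.0% for control H3K9ac, 89.3% for butyrate H3K9ac, 91.7% for butyrate H3K27ac and 95.1% for butyrate Pol II. The control Pol II, control H3K9me3 and butyrate H3K9me3 lists were not used by the rule. In that order they met 11.98%, 5.85% and 4.82% of the sites, beside 5.62%, 2.63% and 3.34% of all control H3K27ac peaks. None of them was met at 3919 sites (81.1%), a share that was not computed for the other sets.

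Butyrate Pol II was called in narrow peaks. The rule placed these on the site, so their position is also a description. The longest overlapping Pol II peak had a median of 272 bp (quartiles 217 and 365 bp), and 738 sites (15.3%) had one of 199 bp, the shortest length in any of the lists. Over all control H3K27ac peaks with butyrate Pol II the median was 266 bp and the share at 199 bp 15.5%. Narrow Pol II peaks were thus not particular to these sites. The centre of the nearest Pol II peak lay a median of 115 bp from the centre of the site (quartiles 51.5 and 194 bp). It was within 100 bp at 2162 sites (44.7%), in the inner part of the site, up to 50% of the way from centre to edge, at 2622 (54.2%) and beyond the edge at 797 (16.5%). Most of the Pol II bases lay within H3K27ac after treatment: butyrate H3K27ac covered 90.4% of them, and at 3604 sites (74.6%) the Pol II peak was fully inside it. Control H3K27ac covered 81.1% of those bases, control H3K9ac 80.5% and butyrate H3K9ac 70.2%. The Pol II overlap was thus widest with butyrate H3K27ac and narrowest with butyrate H3K9ac among the 4 acetylation lists, which were also the lists with the longest and the shortest peaks at the sites.

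**Figure D1:**
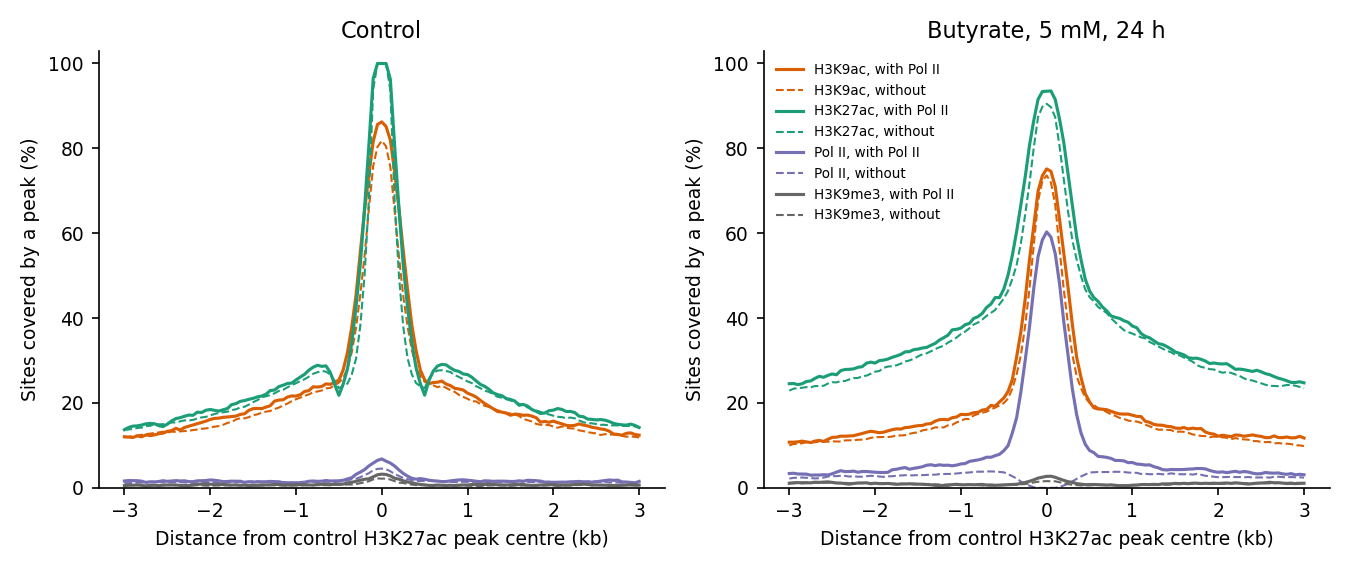
Percent of sites covered by a peak of each list (vertical axis) at distances up to 3 kb on either side of the centre of the control H3K27ac peak (horizontal axis), for control libraries (left) and butyrate libraries (right). Solid lines are the 4834 acetylated Pol II sites and dashed lines the 14256 sites with the same acetylation and no butyrate Pol II peak. The solid and dashed acetylation curves lie close together at 500 bp and further out. Nearer the centre the solid ones are higher, with butyrate H3K27ac at 66.8% against 57.7% at -300 bp. Butyrate Pol II falls from 60.3% at the centre to 8.76% at 500 bp.

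The profile of peak coverage gives these positions as a curve, whose fall away from the centre the rule fixes for the lists it used. A butyrate Pol II peak covered 60.3% of the site centres, 8.76% of positions 500 bp away and 3.23% of positions 3 kb away. Butyrate H3K27ac was the broadest curve, with 93.5% at the centre, 46.6% at 500 bp and 24.6% at 3 kb. Butyrate H3K9ac stood at 75.2%, 20.7% and 11.3% at the same distances. Around the sites without butyrate Pol II, butyrate H3K27ac covered 90.5% of centres and 44.8% of positions at 500 bp, so the sets were close there. Between these points they differed more. At 300 bp on the side of lower coordinates, butyrate H3K27ac covered 66.8% around the acetylated Pol II sites against 57.7% in the comparison set. Control H3K27ac covered 42.6% against 30.4% there. Butyrate Pol II, absent from the comparison sites by their definition, covered 3.64% of positions 500 bp from their centres and 2.29% at 3 kb.

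Few of the sites had a Pol II peak in the untreated cells. Control Pol II overlapped 579 of the 4834 sites, or 11.98% (11.1 to 12.9), beside 5.62% of all control H3K27ac peaks. The share was 8.26% (7.82 to 8.73) at the sites with the same acetylation and no butyrate Pol II, and the intervals did not overlap. It was 21.6% (19.8 to 23.6) among the 1747 longer peaks. The control Pol II list was the larger of the Pol II lists, with 56225 peaks against 31225 after butyrate. At 477 of the 579 sites (82.4%) a control and a butyrate Pol II peak overlapped each other, and their centres were a median of 120 bp apart. Both had to touch the same short site, which by itself keeps them close. At the 579 sites the longest Pol II peak had a median of 246 bp in control and 294 bp after butyrate, and it was longer after butyrate at 355 sites (61.3%), with a median log2 change of 0.21 (quartiles -0.20 and 0.67). The medians of the whole Pol II lists were 219 bp in control and 235 bp after butyrate. The paired change in Pol II length was not computed at other peaks, so it cannot be called particular to these sites.

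H3K9me3, the heterochromatin mark, was called at few of the sites, yet at more of them than in the comparison set. Control H3K9me3 overlapped 283 sites, or 5.85% (5.23 to 6.55), beside 2.63% of all control H3K27ac peaks and 3.89% (3.59 to 4.22) of the sites without butyrate Pol II. Butyrate H3K9me3 overlapped 233 sites, or 4.82% (4.25 to 5.46), beside 3.34% of all control H3K27ac peaks and 2.90% (2.63 to 3.19) of the sites without butyrate Pol II. At the longer peaks the shares were 9.96% and 6.58%. The butyrate H3K9me3 list held 89478 peaks and the control list 25623, so the list that was larger overlapped the smaller number of these sites.

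**Figure D2:**
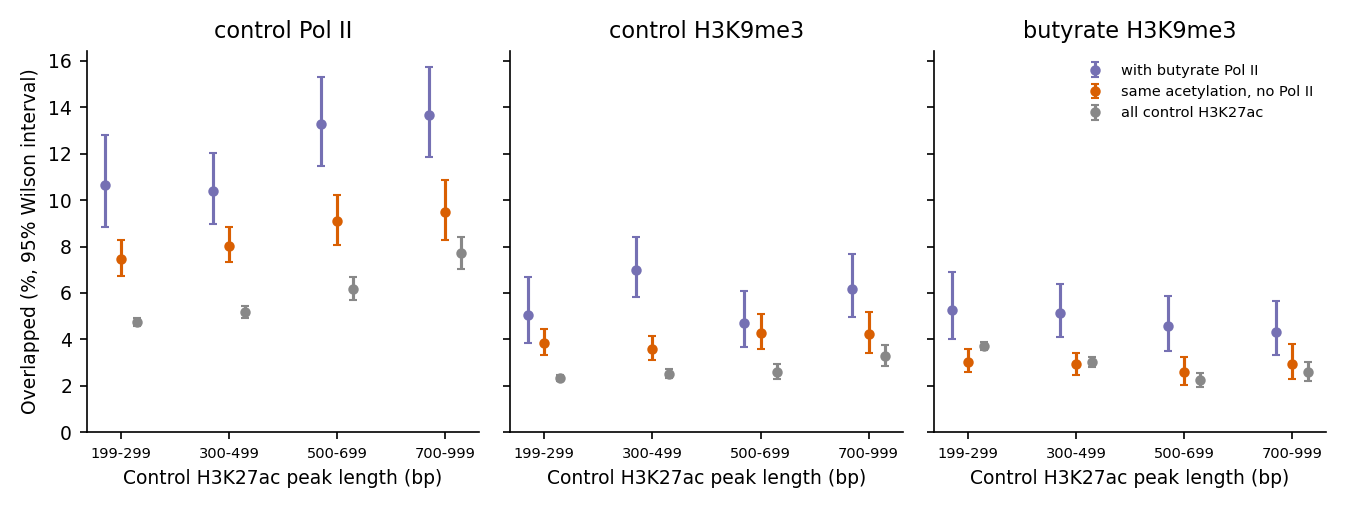
Percent of sites overlapped by control Pol II, control H3K9me3 and butyrate H3K9me3 peaks (vertical axis, points with 95% Wilson intervals) in 4 length bands of the control H3K27ac peak in bp (horizontal axis). Control Pol II lies above the sites with the same acetylation and no butyrate Pol II in all 4 bands, from 10.7% against 7.46% in the shortest band to 13.7% against 9.48% in the longest.

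Since a longer peak meets more peaks of any other list, the overlaps were also taken within bands of length. Control Pol II overlapped 10.7% of sites of 199 to 299 bp, 10.4% of 300 to 499 bp, 13.3% of 500 to 699 bp and 13.7% of 700 to 999 bp. In the sites without butyrate Pol II the values were 7.46%, 8.04%, 9.09% and 9.48%, and the intervals of the pair did not overlap in any band. For H3K9me3 the separation was uneven. Control H3K9me3 was at 7.00% of sites of 300 to 499 bp against 3.59%, the only band in which its intervals did not overlap. It was at 5.06% against 3.85% in the shortest band, 4.73% against 4.26% at 500 to 699 bp and 6.17% against 4.21% in the longest. Butyrate H3K9me3 was between 4.34% and 5.28% of sites in the 4 bands, against 2.58% to 3.04%. Its intervals overlapped in the longest band, 3.32 to 5.64 against 2.30 to 3.798.

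At peaks met by 1 of the 3 lists outside the rule, another of them was called more often than at peaks without it. This held at these sites and over all control H3K27ac peaks. Joint calls were still the fewer: 760 sites met only 1 of the 3 lists, 130 met 2 and 25 met all 3. Control H3K9me3 was present at 83 of the 579 sites with control Pol II, or 14.3% (11.7 to 17.4), and at 4.70% (4.10 to 5.38) of the sites without it. Butyrate H3K9me3 was at 13.0% of the sites with control Pol II and at 3.71% of the others. It was at 16.6% of the sites with control H3K9me3 and at 4.09% of those without. Over all control H3K27ac peaks the same pairs of shares were 10.6% against 2.16%, 11.1% against 2.88% and 17.9% against 2.95%. At the sites without butyrate Pol II they were 9.59% against 3.38%, 7.22% against 2.51% and 9.37% against 2.63%. The joint calls were thus seen in all 3 sets of peaks. At the 47 sites with H3K9me3 in both conditions, the butyrate peak was longer at 23 and shorter at 23. At the acetylated Pol II sites without chromosomes 5 and 14, the first pair of shares was 11.4% against 3.097%, the second 8.88% against 2.72% and the third 12.4% against 2.94%.

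The overlaps with the 3 lists outside the rule depended on chromosomes 5 and 14 and on how peaks were matched. Without these chromosomes, a choice made after seeing the data, control Pol II was at 9.52% of the sites, control H3K9me3 at 3.89% and butyrate H3K9me3 at 3.31%. The comparison set then stood at 7.10%, 2.99% and 2.29%, and all control H3K27ac peaks at 4.75%, 1.99% and 2.60%. With only peaks of at least 300 bp in every list, control Pol II fell to 5.82%, control H3K9me3 to 2.07% and butyrate H3K9me3 to 1.41% of 1065 sites, beside 2.66%, 1.21% and 0.846% of the comparison set. With at least 50% of the site covered by each list, the values were 6.16%, 4.005% and 2.96% of 1623 sites, beside 4.23%, 1.94% and 1.33%. The acetylated Pol II sites were above the comparison set in each of these settings, but with peaks of at least 300 bp the H3K9me3 intervals overlapped, 1.37 to 3.11 against 0.965 to 1.52 in control and 0.855 to 2.31 against 0.644 to 1.11 after butyrate.

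At 25 sites (0.517%) peaks of all 8 lists touched the site, though not always each other. That share was not computed for other control H3K27ac peaks. Of the 25 sites, 10 were on chromosome 5, which held 9.83% of all acetylated Pol II sites and 6.88% of all control H3K27ac peaks. On chromosome 3, chr3:15209077-15209727 had H3K27ac peaks of 651 bp in control and 2176 bp after butyrate, H3K9ac peaks of 507 and 1791 bp, Pol II peaks of 471 and 1009 bp, and H3K9me3 peaks of 199 and 280 bp. All 4 antibodies gave a longer peak after butyrate there. On chromosome 26, chr26:9366649-9366995 had H3K27ac peaks of 347 and 937 bp, H3K9ac peaks of 532 and 582 bp, Pol II peaks of 464 and 781 bp and H3K9me3 peaks of 732 and 334 bp, so H3K9me3 alone was shorter after butyrate. On chromosome 5, chr5:73552999-73553783 and chr5:73555040-73555779 were neighbours. The first kept its H3K27ac length, with 785 and 780 bp, while its H3K9ac peak went from 784 to 413 bp. At the second, H3K27ac went from 740 to 596 bp and H3K9ac from 2206 to 1124 bp. Over the 25 sites H3K27ac was longer after butyrate at 17, H3K9ac at 11, Pol II at 12 and H3K9me3 at 13, so only H3K27ac leaned to 1 side by more than a few sites.

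Peak lengths of the acetylation marks moved in opposite directions between the conditions. Length is the only size that the lists hold, and each value is that of the longest overlapping peak. A control peak that was called in several pieces after butyrate therefore counts as shorter. The lists of both marks were larger after butyrate, with 115104 peaks against 74114 for H3K9ac and 187465 against 94603 for H3K27ac. A shorter H3K9ac peak at a site is thus not a smaller H3K9ac list. Control H3K27ac had a median of 498 bp at the sites (quartiles 336 and 698 bp), and butyrate H3K27ac 804.5 bp (543 and 1152 bp). Control H3K9ac had 509 bp (342 and 724 bp) and butyrate H3K9ac 397 bp (281 and 570 bp). In the whole lists the medians were 288 and 326 bp for H3K27ac and 300 and 271 bp for H3K9ac. The limit of 1000 bp held only for the control H3K27ac peak: 1659 sites (34.3%) had a butyrate H3K27ac peak of 1000 bp or more. That share was 25.5% at the sites without butyrate Pol II, whose control H3K27ac peaks were shorter, with a median of 392 bp. It was 17.5% among control H3K27ac peaks under 1000 bp that met a butyrate one.

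**Figure D3:**
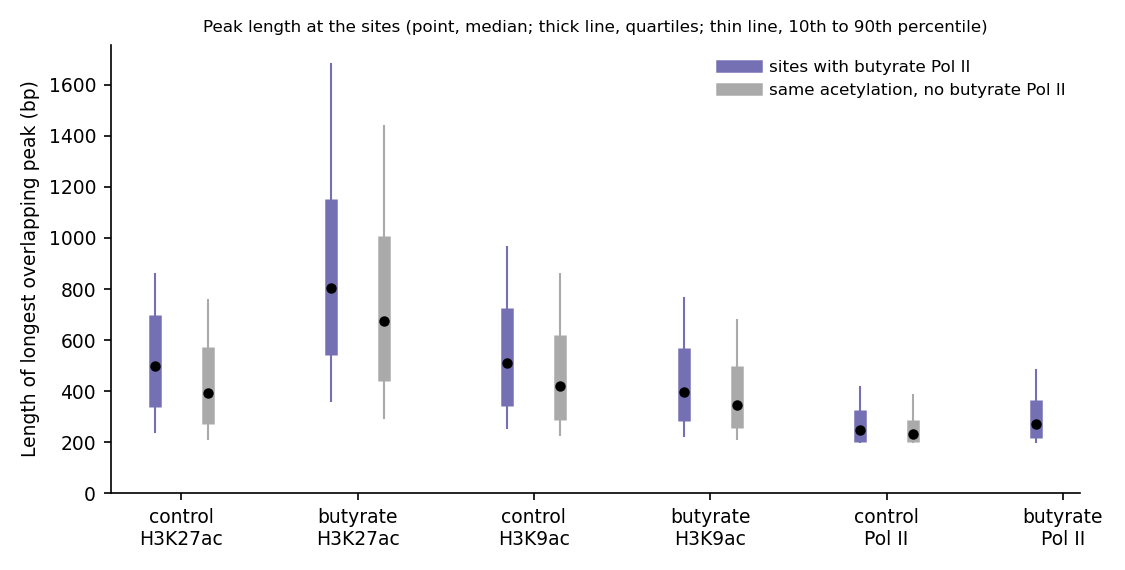
Length in bp of the longest overlapping peak of each list (vertical axis, from 0) at the acetylated Pol II sites and at sites with the same acetylation and no butyrate Pol II. Points are medians, thick lines quartiles and thin lines the 10th to 90th percentile. Control Pol II lengths are those of the sites that had such a peak. H3K27ac went from a median of 498 to 804.5 bp and H3K9ac went from 509 to 397 bp at the acetylated Pol II sites.

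Site by site, the butyrate H3K27ac peak was longer than the control peak at 3700 sites (76.5%), beside 71.9% of all control H3K27ac peaks under 1000 bp that met a butyrate one. The median change was 0.64 on the log2 scale (quartiles 0.03 and 1.38), or 1.55-fold. At the sites without butyrate Pol II it was 0.68, with 76.0% longer, so over all lengths together the set without Pol II had a slightly larger change. The H3K9ac peak was shorter after butyrate at 3095 sites (64.0%), beside 64.8% of control H3K27ac peaks of any length with H3K9ac in both conditions. Its median change was -0.29 on the log2 scale (quartiles -0.88 and 0.22), against -0.20 at the sites without butyrate Pol II. Among control H3K27ac peaks under 1000 bp with H3K9ac in both conditions, the share with shorter H3K9ac was 60.9% (60.2 to 61.6). It was 60.1% (59.3 to 60.9) at the sites without butyrate Pol II. The 64.0% at the acetylated Pol II sites (62.7 to 65.4) was above both. These sites also started longer, with a median control H3K27ac peak of 498 bp against 392 bp without butyrate Pol II, so the shares are not matched for length.

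Both changes differed with the length of the control H3K27ac peak. For H3K27ac that length is also the denominator of the change, so a fall across bands is in part fixed by the measure. The H3K9ac change was not banded by the length of the control H3K9ac peak. H3K27ac changed by a median log2 of 1.63 at sites of 199 to 299 bp, 0.87 at 300 to 499 bp, 0.46 at 500 to 699 bp and 0.10 at 700 to 999 bp. At the sites without butyrate Pol II the values were 1.41, 0.69, 0.25 and -0.01, lower in each band. H3K9ac changed by 0.00, -0.15, -0.37 and -0.62 in the same bands of sites, and by -0.04, -0.14, -0.37 and -0.59 at the sites without butyrate Pol II, so within bands the sets were close. At the 1747 longer peaks H3K27ac had a median change of -0.27 and H3K9ac one of -0.97. When peaks less than 1 kb apart were joined, the rule was applied anew and picked 1518 sites. At these the H3K27ac change was 1.60 and the H3K9ac change 0.09. The direction for H3K9ac was thus not kept there, but both the sites and their peaks differed from those as called.

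At 2226 sites (46.0%, 44.6 to 47.5) H3K27ac was longer and H3K9ac shorter, beside 44.2% of all 19090 short sites with both marks in both conditions. Both marks were longer at 1431 sites (29.6%) and both shorter at 839 (17.4%). The reverse pair, shorter H3K27ac and longer H3K9ac, was the least frequent with 239 sites (4.94%), and 99 sites had at least 1 mark of equal length.

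**Figure D4:**
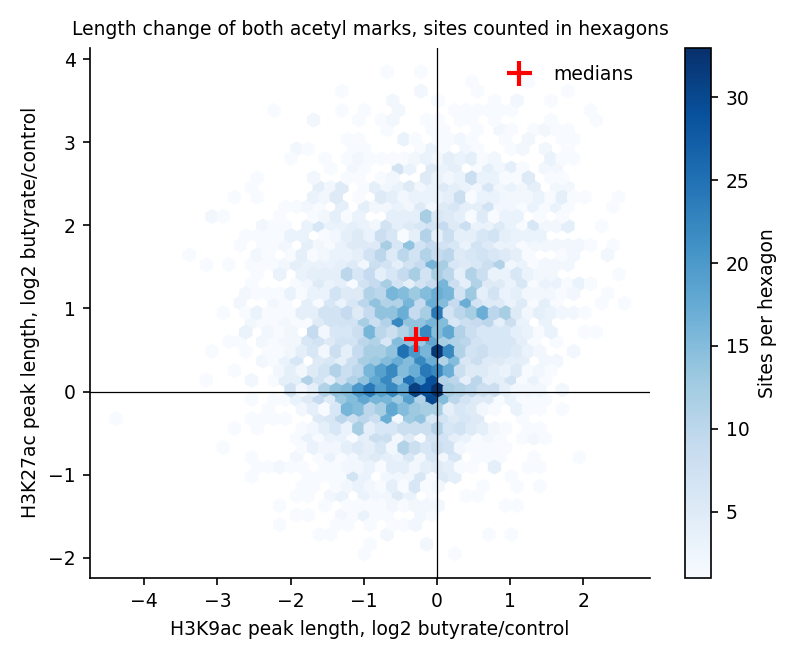
Change in H3K9ac peak length (horizontal axis) against change in H3K27ac peak length (vertical axis), both as log2 of butyrate over control, with hexagons shaded by the number of the 4834 sites in them. The cross marks the medians, -0.29 for H3K9ac and 0.64 for H3K27ac, in the upper left part of the plot, where 46.0% of the sites lay.

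The sites at the ends of these ranges were chosen by size and are given as a description. The largest H3K27ac rise was at chr5:9508479-9508677, from 199 to 2862 bp, while its H3K9ac peak went from 1711 to 1073 bp. Next came chr7:63332460-63332773, from 314 to 4342 bp, and chr8:100256510-100256731, from 222 to 2968 bp. The latter also had a control Pol II peak of 337 bp and a butyrate one of 215 bp. In all 3 cases a short control peak lay inside a broad butyrate domain, and the Pol II peak stayed at 410 bp or less. The largest H3K27ac falls were at chr20:18893790-18894559, from 770 to 199 bp, at chr26:14868931-14869850, from 920 to 243 bp, and at chr3:88014593-88015585, from 993 to 279 bp. Their Pol II peaks measured 199, 199 and 203 bp.

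For H3K9ac the largest rises were at chr5:101357072-101357324, from 237 to 1399 bp, at chr5:54903769-54904176, from 199 to 1097 bp, and at chr2:25570658-25570901, from 202 to 1092 bp. H3K27ac was also longer after butyrate at all 3, by 2.01-fold, 2.60-fold and 5.02-fold. The largest H3K9ac falls were at chr6:23678442-23679142, from 4958 to 237 bp, at chr7:27061214-27061905, from 2299 to 223 bp, and at chr7:89367781-89368405, from 2561 to 286 bp. At the chromosome 7 sites H3K27ac went the other way, from 692 to 2213 bp and from 625 to 1785 bp. At the chromosome 6 site it went from 701 to 555 bp.

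The longest butyrate Pol II peaks reached past the sites on which they were found. A Pol II peak of 2909 bp on chromosome 9, from 73304602 to 73307510, touched 2 sites, chr9:73306417-73306704 and chr9:73307471-73307669. Neither had a control Pol II peak. At chr2:129896584-129897346 the butyrate Pol II peak was 1798 bp long and the control one 227 bp. On chromosome 20, chr20:20857143-20857687 and chr20:20857874-20858267 shared a Pol II peak of 1778 bp and a butyrate H3K27ac peak of 2426 bp. Their H3K9ac peaks were 754 and 423 bp in control and 199 and 215 bp after butyrate. A Pol II peak of 1000 bp or more was found at 25 sites (0.517%). Over all 12094 control H3K27ac peaks with butyrate Pol II it was found at 114 (0.943%).

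Some sites lay close together along the chromosomes. Spacing and shared peaks were counted only at these sites, so they are a description and are not read as a trait particular to them. Successive sites were a median of 117 kb apart (quartiles 17.0 and 514 kb), and 1026 sites (21.2%) had another within 2 kb. In 517 cases (10.7%) a site shared its longest butyrate H3K27ac peak with another site, and 1 such peak joined up to 4 sites. In 259 cases (5.36%) it shared its butyrate Pol II peak. Within 5 kb there was a mean of 3.49 other control H3K27ac peaks, as at the sites without butyrate Pol II with 3.48, and more than the mean of 2.88 over all control H3K27ac peaks. The spacing was a median of 844 kb with peaks of at least 300 bp and 588 kb with at least 50% of the site covered.

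Chromosome 5 held more of the sites than any other chromosome. It had 475 of them, or 9.83% (9.02 to 10.7), against 6.88% of all control H3K27ac peaks. Of its short sites with both acetyl marks in both conditions, 32.1% (29.8 to 34.5) had butyrate Pol II, the upper end of a range that went down to 21.5% (19.02 to 24.3) on chromosome 8. Chromosome 14 had 219 sites, with 31.2% of its short acetylated sites meeting Pol II, and chromosome 15 had 227, with 30.4%. Of these, chromosomes 5 and 14 also had the highest shares among the autosomes in the lists that the rule did not use. On X, butyrate H3K9me3 overlapped 3 of 20 sites (15%). Control Pol II overlapped 27.6% of the acetylated Pol II sites on chromosome 5 and 24.7% on chromosome 14, control H3K9me3 18.5% and 15.5%, and butyrate H3K9me3 13.7% and 14.2%. Over all control H3K27ac peaks of these chromosomes the shares were 13.01% and 12.6% for control Pol II, 8.19% and 7.61% for control H3K9me3, and 9.28% and 10.03% for butyrate H3K9me3, each above the share over all chromosomes. Chromosome 5 also held 9.43% of all butyrate Pol II peaks. The high overlaps there were thus shared by all control H3K27ac peaks of these chromosomes, and the cause was not tested.

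**Figure D5:**
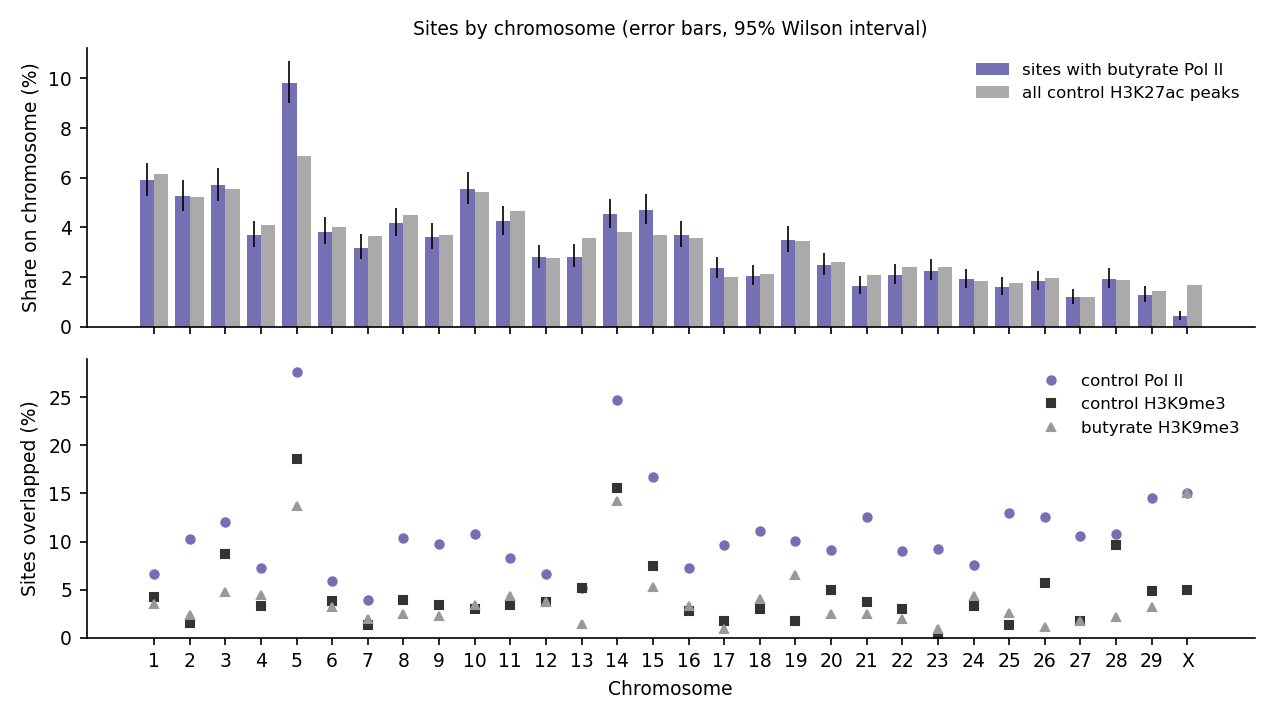
Upper panel, percent of the acetylated Pol II sites and of all control H3K27ac peaks on each chromosome (bars from 0, with 95% Wilson intervals for the sites). Lower panel, percent of the sites on each chromosome overlapped by control Pol II, control H3K9me3 and butyrate H3K9me3 peaks. Chromosomes 5 and 14 have the highest control Pol II shares, 27.6% and 24.7%.

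The X chromosome was the other extreme, with 20 sites, or 0.414% (0.268 to 0.638), against 1.67% of all control H3K27ac peaks. Its short sites with both acetyl marks numbered 73, and 27.4% (18.5 to 38.6) of these had Pol II, within the range of the autosomes. Of the 1583 control H3K27ac peaks on X, 1.26% were acetylated Pol II sites, against 5.11% over all chromosomes, and the gap lay in the acetylation and length steps of the rule. Chromosome 19 held 169 sites, or 3.50% (3.01 to 4.05), close to its 3.46% of control H3K27ac peaks.

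Over the span of the peaks there were 1.82 sites per Mb. Of 2677 windows of 1 Mb, 1501 (56.1%) held at least 1 site, and 44 windows held 10 or more, with 563 sites (11.6%) among them. The window with most sites was chr15:38000001-39000000, where 25 of 172 control H3K27ac peaks were acetylated Pol II sites. The next were chr10:80000001-81000000, with 24 of 179, and chr8:40000001-41000000, with 20 of 253. Chromosome 8 thus had 1 of the 3 densest windows and the lowest share of acetylated sites with Pol II.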

How the data were processed

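ChIP-seq libraries of control and butyrate-treated MDBK cells, 4 of each, were analysed, and the 1 input library, which the labels give no treatment, was used only by the authors. The deposited peak lists hold chromosome, start and end of each peak and no score, signal or read count. The authors aligned reads to UMD3.1 with BWA and kept uniquely mapped ones. Trim Galore 0.4.1 is named in the submitters' processing notes, but the study's methods give it for other data types, so its use on these libraries is uncertain. The authors called peaks in each library with MACS2 against the input, so a list's size also depends on that library's depth, which was not examined here.

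Starts were read as 0-based. Only the 29 autosomes and X were kept. Overlap meant at least 1 shared bp. Where several peaks met a site, the longest gave the length and the nearest the distance. Shares have 95% Wilson intervals; no test between conditions was possible. The script was tested on simulated peaks. Regions named are those met by all 8 lists (25, of which the 4 described were picked after their values were seen), the 5 sites with the longest butyrate Pol II peaks, the 3 largest rises and falls in length of each acetyl mark, the 3 windows with most sites, and 2 peaks on each side of the length limit, ties by chromosome and position (6 sites tied at 999 bp). Sites and comparisons were chosen with earlier results of these data known. Alternatives changed the overlap, the length limits, the joining of close peaks, the start convention and the chromosomes kept. Python 3.11.15, numpy 2.4.6, pandas 2.3.3 and scipy 1.17.1 were used.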

Additional observations from a re-analysis of the deposited data

Results flagged for a closer look

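The length changes of the acetyl marks had opposite signs at the acetylated Pol II sites. The median change after butyrate was 0.64 on the log2 scale for H3K27ac and -0.29 for H3K9ac. With 1 library per mark and condition, the difference between the marks was not tested. The H3K27ac change starts from a control length that the rule held under 1000 bp. The bands are of that same length, so a fall across them is in part fixed by the measure. The H3K27ac change ran from 1.63 in the shortest band of sites to 0.10 in the longest. It was -0.27 at peaks of 1000 bp or more that met the other steps. The H3K9ac change turned to 0.0888 when peaks less than 1 kb apart were joined, at the 1518 sites that the rule then picked.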

How the results depend on the processing

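Over 8 alternative settings and 9 results, 31 of 72 values stayed within their error or 1.5 times the count, 40 moved and 1 reversed. Autosomes alone (4814 sites) and starts counted from 1 (4836) moved none. In the orders below, overlap shares are control Pol II, control H3K9me3 and butyrate H3K9me3, and length changes are median log2 for H3K27ac, then H3K9ac. With at least 50% of the site covered there were 1623 sites, shares of 6.16%, 4.005% and 2.96%, changes of 0.85 and -0.13, a Pol II distance of 65.0 bp and a spacing of 588 kb. With peaks of at least 300 bp there were 1065 sites, shares of 5.82%, 2.07% and 1.41%, an H3K27ac change of 0.53, a distance of 126 bp, a spacing of 844 kb and 2.91% of sites on chromosome 19. Joining peaks less than 1 kb apart gave 1518 sites, shares of 13.3%, 7.58% and 6.39%, changes of 1.60 and 0.0888 (the reversed value), a distance of 145 bp and a spacing of 779 kb. A limit of 800 bp gave changes of 0.78 and -0.23, a distance of 106 bp and a spacing of 152 kb. With no upper limit the first shares were 14.5% and 6.94%, the changes 0.32 and -0.48, the distance 140.0 bp and the spacing 61.1 kb. Without chromosomes 5 and 14, added after seeing the data, the shares were 9.52%, 3.89% and 3.31%, the changes 0.60 and -0.31, the spacing 132 kb and the chromosome 19 share 4.08%. The cause of these changes was not tested. No paired analysis was possible because no antibody had a second library in either condition.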

Other observations

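The control H3K27ac list runs in an order whose key is not stated in the sources used here. With the list cut into 10 stretches of about equal size in that order, acetylated Pol II sites made up 9.88% of the peaks in the opening stretch and between 1.87% and 3.38% in each of the last 5. The median peak length was 717 bp in the opening stretch and 246 bp in the closing one.

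Within 5 kb, control Pol II had no peak at 55.1% of the sites and at 58.7% of the sites with the same acetylation and no butyrate Pol II. Butyrate H3K9me3 had none at 71.9% and 73.0% of these sets, and at 75.3% of all control H3K27ac peaks.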
